A study of Mus musculus with 3 samples.

Results

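The replication-dependent histone cluster genes were taken as every gene of the array whose name begins with Hist1h, Hist2h, Hist3h or Hist4h. There were 49 such genes among the 34797 gene names of the array, read by 55 of its 55679 probes. They comprise 6 genes of the linker histone H1 and, for the core histones, 14 genes of H2A, 12 of H2B, 8 of H3 and 9 of H4. A gene counted as detected when a probe for it was well above background in at least 1 of the 3 samples. This held for 48 of the 49 genes, the exception being the H1 gene Hist1h1d, and 44 genes were well above background in all 3 samples. The 48 genes are described by their brightest detected probe.

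The study placed islets in the spleens of diabetic mice and measured the RNA of the graft-bearing spleens on 3 one-color arrays, with 1 array per condition and no replicates. All recipients were male C57BL/6J mice made diabetic with streptozotocin. They received syngeneic islets, 25 of them in the spleen and 100 under the capsule of the kidney (SP25+KC100). Sample 1 was spleen harvested on day 0, immediately after the transplantation, and Sample 2 was spleen from day 2. Sample 3 was spleen from day 139, in mice whose graft-bearing kidney had been removed on day 100. The sample labels name the capsular islets in the characteristics of Sample 3 only, while the protocol text gives them for all 3 samples, which is followed here. The number of mice behind each array and their age on each array are not given in the sources used here, and the study states only a general age range for its mice. Spleen that received no islets was not analysed here, so all 3 samples share the diabetes and the graft, and time, nephrectomy and age cannot be told apart.

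Replication-dependent histone genes supply the protein that packages newly copied DNA, and their mRNAs accumulate in S phase of the cell cycle and are broken down when DNA synthesis stops. They differ from other mRNAs in that they carry no introns and normally end in a conserved stem-loop, which is bound by the protein Slbp, instead of a poly(A) tail. Some of the genes can also give longer, polyadenylated mRNAs in cells that do not divide. The mouse spleen is a site of red blood cell formation as well as a lymphoid organ, and both erythroid precursors and responding lymphocytes divide there.

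The sequences of the probes show which stretches were read, but not which form of the mRNA was labeled. Apart from Hist1h2ag, the H2A genes with the brightest signals were read by probes that end at the stop codon. For 4 of them the probe is printed, with the stop codon in capitals, because these probes are almost the same.
Hist1h2af: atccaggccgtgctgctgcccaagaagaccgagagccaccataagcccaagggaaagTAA
Hist1h2ak: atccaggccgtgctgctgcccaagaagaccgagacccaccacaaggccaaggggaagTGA
Hist1h2an: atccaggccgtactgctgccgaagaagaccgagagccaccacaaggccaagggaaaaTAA
Hist2h2aa2: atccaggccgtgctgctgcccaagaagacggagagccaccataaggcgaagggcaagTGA
These probes lie at chr13:23626113-23626172 (plus strand), chr13:21845304-21845363 (minus strand), chr13:21878695-21878754 (minus strand) and chr3:96049837-96049896 (plus strand) of the mm9 build used by the array. Over the 6 H2A probes that end in a stop codon, any pair shared between 70.2% and 94.4% of its bases, and the probes for 8 histone genes were over 90% identical to the probe for another. Such a probe can take up the mRNA of several H2A or H4 genes, so its signal belongs to a group of near-identical genes, and the contribution of each gene is uncertain.

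The stem-loop itself was present in the probes for 5 of the detected genes, from the classes H2A, H2B, H3 and H4. It is shown in capitals for 4 of them, since a probe that covers it lies at the end of the short, replication-dependent mRNA.
Hist1h3a: ccaaaGGCTCTTTTCAGAGCCaca
Hist1h3i: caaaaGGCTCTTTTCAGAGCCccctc
Hist1h4m: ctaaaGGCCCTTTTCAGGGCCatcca
Hist2h2bb: caaaaGGCTCTTTTCAGAGCCacttt
The stem-loop was searched for as 6 paired bases on each side of a loop that begins with TTT, starting with GG and ending with CC. It was found in 11 of the 55681 probe sequences on the array (0.0198%) read in the direction of the mRNA and in 4 on the other strand (0.00718%), so 5 of the 11 were histone cluster probes. The shorter core CTTTTNAG, which overlaps the stem-loop, was found in 8 of the 55 histone probes and in 0.629% of all probes, and on the other strand in 0.726% of all probes and 0 of the 55.

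The opposite kind of end, a signal for polyadenylation (AATAAA or ATTAAA), was present in the probes used for 3 of the detected genes, shown with the hexamer in capitals.
Hist3h2ba: taatggtattAATAAAtttggttca
Hist1h2be: actgttcattATTAAAgcattcctga
Hist1h2ag: gccaaggggaAATAAAaccctttata
In Hist1h2ag the hexamer overlaps the stop codon at the end of the H2A reading frame. Either hexamer was found in 13.7% of all probes on the array in the direction of the mRNA, in 6.14% on the other strand, and in 4 of the 55 histone probes, of which the remaining probe was a dimmer probe for Hist1h4i.

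The 3 arrays had 30291, 29982 and 28088 of the 55679 probes well above background in Samples 1, 2 and 3, respectively, and no spot of a histone probe was saturated or marked as an outlier. Probes printed as several spots had a median coefficient of variation of 4.04% to 5.41% within an array, which covers neither the labeling nor differences between mice. The signals are quantile normalized and in arbitrary units, and signals of different probes are not on a common scale. The lymphocyte markers of spleen were detected, with 8 of 8 B cell genes and all 7 T cell genes on the array well above background in all 3 samples. After scaling to the 7 spike-in controls in place of quantile normalization, the median log2 ratio of all detected genes was 0.43 for Sample 3 over Sample 1 and 0.48 for Sample 3 over Sample 2, against -0.00 and -0.03 with quantile normalization. The log2 values below are therefore read beside the median of all genes.

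Relative to the other genes of the array, histone cluster signals were lower on day 139. In Sample 3 over Sample 1, 38 of the 48 detected genes were lower and 10 were higher, with a median log2 ratio of -0.43, against -0.00 for all 22851 detected genes, of which 50.3% were lower. Since 2 of the 10, Hist1h2ae and Hist3h2bb-ps, did not clear the background in either of these samples, 36 lower and 8 higher genes remained among the 44 measured in both. Scaled to the spike-in controls, 20 of the 48 histone genes were lower and 28 higher, with a median of 0.07 against 0.43 for all genes, so the place of the histone genes below the other genes was kept and the sign of their median was not. A ratio of at most 0.66 was reached by 14 histone genes (29.2%), against a background of 13.7% of all genes, and a ratio of at least 1.5 by 2 histone genes (4.17%), against 13.6%. Under spike-in scaling the median of all genes was itself 0.43. On that scale 1 histone gene was at a ratio of at most 0.66 and 6 at a ratio of at least 1.5. Under normexp background correction 9 genes were at a ratio of at most 0.66. The shares of all genes at these limits under either setting are not given here. The study called a gene regulated when a Z-score of at least 2 or at most -2 came with that ratio. For the Z-score, each log2 ratio was divided by the SD over the 1000 detected probes of most similar signal. By both criteria 0 histone genes were lower, against 2.45% of all genes, and 0 were higher, against 3%. When the SD was replaced by the scaled median absolute deviation, 10 genes were lower by both criteria and 1 was higher. The shares of all genes by that rule are not given here, so these counts have no background beside them. For 23 lower and 3 higher genes the log2 ratio exceeded 2 times the error that the scanner software attaches to it (median 0.20). That error covers the spot only, and the share of all genes beyond 2 times their error is not given here. With 1 array per condition, no test of the conditions was possible.

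Sample 3 was the lowest of the 3 samples for 36 of the 48 histone genes, Sample 1 for 6 and Sample 2 for 6. Among all detected genes, Sample 3 was the lowest for 37.6%. Sample 2 was the highest for 29 of the 48 histone genes, and for 34.7% of all genes. These counts hold for quantile normalization. Under spike-in scaling, Sample 3 was the lowest for 18 of the 48 histone genes and Sample 2 the highest for 21. The shares of all genes on that scale are not given here.

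**Figure D1:**
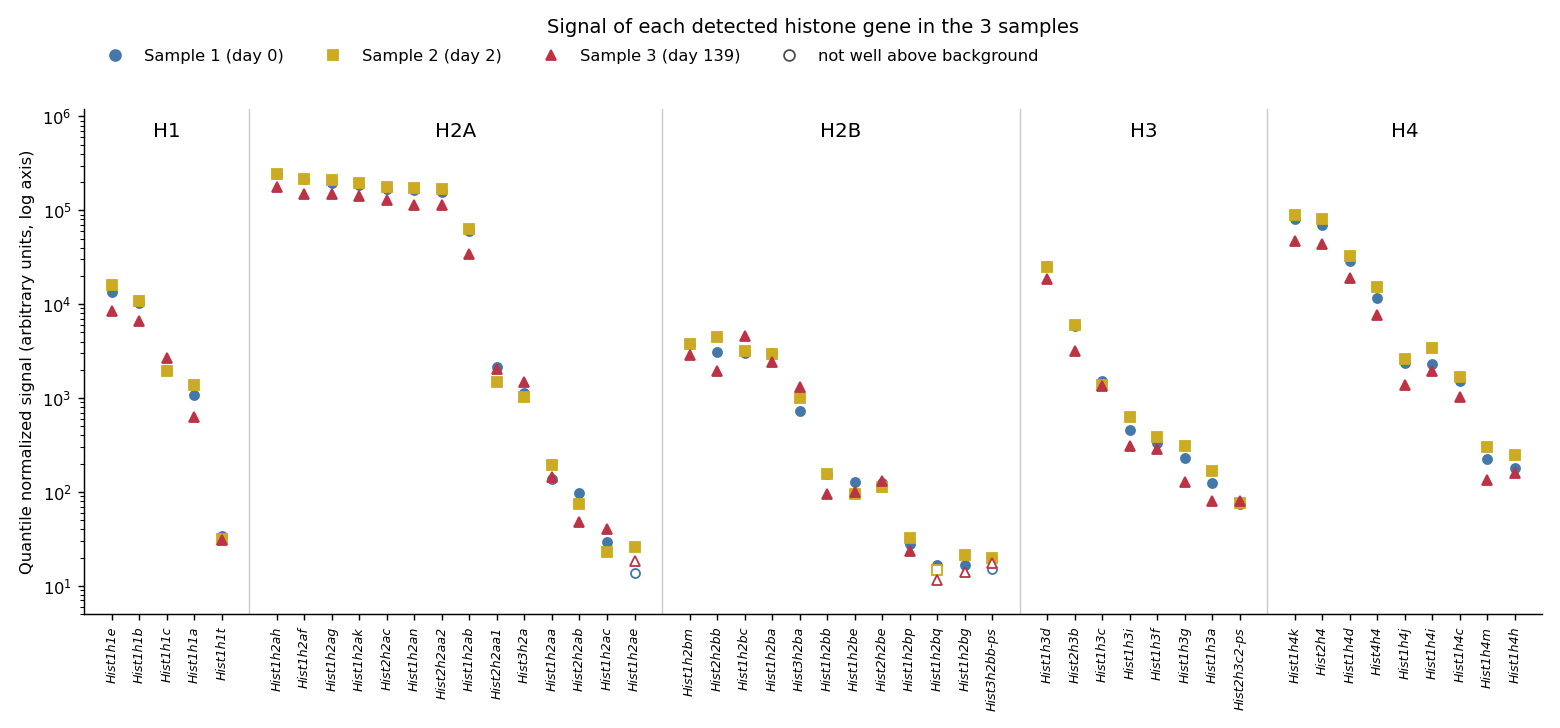
Quantile normalized signal (arbitrary units, log axis) of the 48 detected histone genes in Sample 1 (circles), Sample 2 (squares) and Sample 3 (triangles), grouped by histone class and ordered by the signal in Sample 1. Open symbols did not clear the background, and the red triangles of Sample 3 lie lowest for 36 genes on this scale.

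The 5 histone classes did not stand at the same level. In Sample 3 over Sample 1 the class median log2 ratio was -0.64 for H1, -0.40 for H2A, -0.29 for H2B, -0.50 for H3 and -0.59 for H4. H4 was the most uniform class, with all 9 genes lower (7 of 9 under spike-in scaling), whereas H2B ranged from -0.69 to 0.85. Over the 14 alternative settings, the class median less the median of all genes lay between -0.61 and -0.54 for H4, between -0.53 and -0.37 for H3 and between -0.66 and -0.41 for H1. For H2A it lay between -0.42 and -0.05 and for H2B between -0.33 and -0.10. In some settings the medians of H2A and H2B thus lay close to the median of all genes, while those of H1, H3 and H4 stayed further below it. Some of the settings, such as the Z-score window and the ratio limit, leave the medians unchanged by design. Scaled to the spike-in controls and not set against the other genes, the medians of H1, H3 and H4 were -0.21, -0.06 and -0.15, while those of H2A and H2B turned to 0.19 and 0.10. On that scale 7 of 9 H4 genes, 5 of 8 H3 genes and 3 of 5 H1 genes were still lower in Sample 3, but only 2 of 14 H2A genes and 3 of 12 H2B genes.

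**Figure D2:**
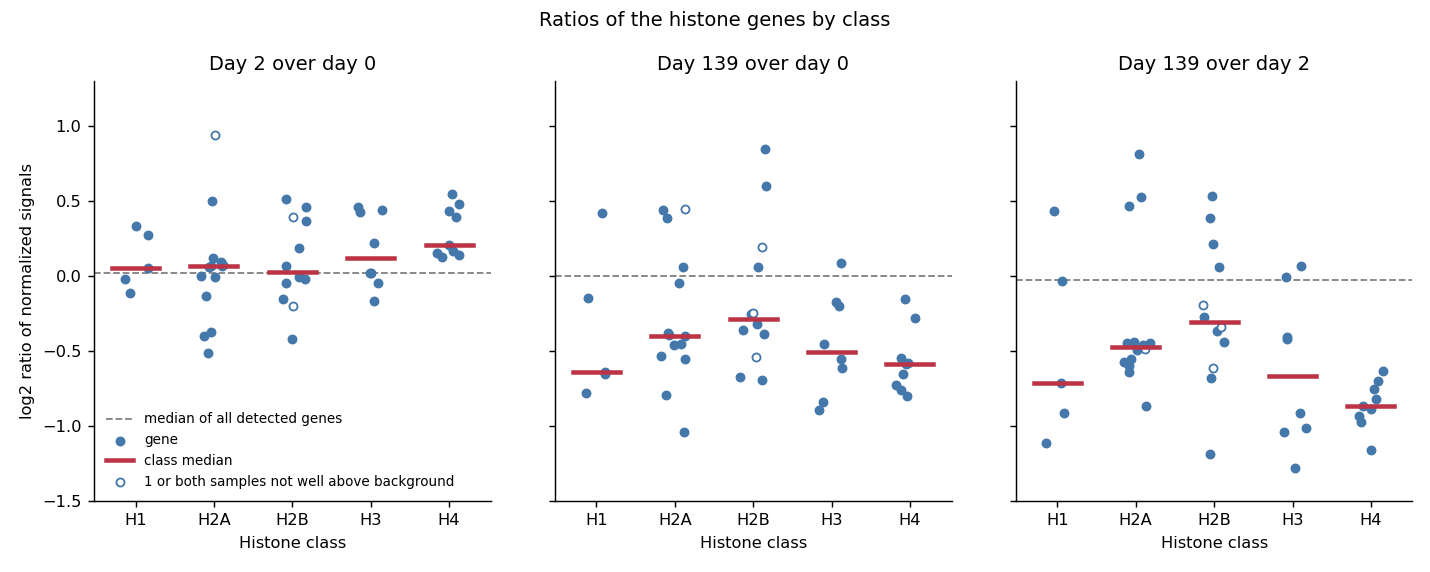
Log2 ratios of the detected histone genes by class in the 3 comparisons, where each circle is a gene (open where a sample did not clear the background), the red bar the class median and the dashed line the median of all detected genes. On day 139 the medians of all 5 classes lie below that line, from -0.29 for H2B to -0.64 for H1 over day 0, and in H2B some genes lie well above it. Under spike-in scaling the medians of H2A and H2B lie above 0, at 0.19 and 0.10.

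The linker histones, which bind the DNA between nucleosomes, went in both directions. Hist1h1e had signals of 13333, 16114 and 8557 in Samples 1, 2 and 3, respectively. Hist1h1b had signals of 10321, 10717 and 6544. Hist1h1a had signals of 1084, 1368 and 631. All 3 genes were highest in Sample 2 and lowest in Sample 3, with ratios of Sample 3 over Sample 1 of 0.642, 0.634 and 0.582. Hist1h1c, which can give polyadenylated mRNA, had signals of 1986, 1962 and 2654 and was the only detected H1 gene that was higher in Sample 3, at a ratio of 1.34. The testis linker histone Hist1h1t was dim in all samples, at 34.1, 31.5 and 30.9. Hist1h1d stayed near background in all 3 samples.

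The H2A class held the brightest signals among the histones. Hist1h2ah had signals of 244821, 243059 and 178080 in Samples 1, 2 and 3. Hist1h2af had 217109 in both Samples 1 and 2, which is the value of the same rank on both arrays, and 147574 in Sample 3. Hist1h2ag had 196709, 209729 and 148987. These genes and Hist1h2ak, Hist1h2an, Hist2h2aa2 and Hist2h2ac, which together make up the 7 histone genes with a mean signal over 100000, were all lower in Sample 3 than in both other samples. Their ratios of Sample 3 over Sample 1 lay between 0.680 and 0.767, and all 7 turned to slightly higher values in Sample 3 when scaled to the spike-in controls, at log2 ratios from 0.03 to 0.20. Their probes ranked between 9 and 66 among all probes in Sample 1 and between 38 and 143 in Sample 3. Of all 151 genes with a mean signal over 100000, 73 were lower in Sample 3 than in Sample 1, and their median log2 ratio was 0. Since 6 of the 7 genes share near-identical probes, they are not 7 separate measurements.

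Of the other H2A genes, Hist1h2ab had signals of 60058, 63111 and 34640 and a ratio of 0.577. The dimmer Hist2h2ab had signals of 98.1, 74.1 and 47.6, at 0.485 the smallest ratio of Sample 3 over Sample 1 among the histone genes. Hist2h2aa1, whose probe holds a stem-loop, had signals of 2131, 1490 and 2058, so it was lowest on day 2 and nearly equal on days 0 and 139. Its probe lies at chr3:96049949-96050008 (plus strand), just past the probe for Hist2h2aa2, and these probes disagreed. Ratios of Samples 2 and 3 over Sample 1 were 0.699 and 0.966 for Hist2h2aa1, and 1.08 and 0.730 for Hist2h2aa2. Whether both probes read the same mRNA was not tested. Hist3h2a had signals of 1134, 1032 and 1486, and Hist1h2ac had 29.6, 22.8 and 40.1. Both were higher in Sample 3 than in both other samples. The testis gene Hist1h2aa had signals of 138, 195 and 144 and was highest on day 2. Leaving out the near-identical probes changed the H2A median of Sample 3 over Sample 1 from -0.40 to -0.05, so the H2A median depended on this group. The value of -0.05 keeps Hist1h2ak through another probe. It also counts Hist1h2ae, which did not clear the background in either sample, so its size is uncertain.

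The H2B class was the most divided, with 8 genes lower and 4 higher in Sample 3 than in Sample 1. Hist2h2bb had signals of 3092, 4419 and 1942 in Samples 1, 2 and 3, with a ratio of Sample 3 over Sample 1 of 0.628. Hist1h2bb had 156, 155 and 96.3 and a ratio of 0.619. Hist1h2bm, the brightest H2B gene in Sample 1, had 3795, 3736 and 2900. Against this, Hist3h2ba had 722, 995 and 1299, with each later sample higher than the one before, and its ratio of 1.80 was the largest among the histone genes. Hist1h2bc had 3030, 3173 and 4586 and a ratio of 1.51. These 2 were the only histone genes past a ratio of 1.5, and Hist1h2bc was at a log2 ratio of 0.58 after scaling to the 75th percentile, just below that limit. The testis gene Hist1h2ba, whose protein replaces the usual H2B in male germ cells, had 3027, 2926 and 2425. Whether its probe also takes up related mRNAs in spleen was not tested. Hist1h2bg, Hist1h2bq and Hist3h2bb-ps were well above background in only some samples.

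Among the H3 genes, Hist1h3d had the brightest signals, at 25595, 24719 and 18645, with a ratio of Sample 3 over Sample 1 of 0.728. Hist2h3b had 5916, 6009 and 3187 and the smallest ratio of the class, 0.539. Hist1h3g had 227, 308 and 127, with a ratio of 0.557. Hist1h3a had 124, 166 and 80.9, and Hist1h3i had 453, 623 and 309. These last 3 genes share the same order, highest on day 2 and lowest on day 139. Hist1h3c differed little, with 1533, 1366 and 1360. Hist2h3c2-ps, named as a pseudogene on the array, had 74.6, 75.8 and 79.3 and was the only H3 entry that was not lower in Sample 3.

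With quantile normalization all 9 H4 genes were highest in Sample 2 and lowest in Sample 3. Hist1h4k had signals of 81009, 89118 and 46571 and a ratio of Sample 3 over Sample 1 of 0.575. Hist2h4 had 69209, 79950 and 43913 and a ratio of 0.635. Hist1h4d had 28857, 32306 and 19190, and Hist4h4, which lies outside the large clusters, had 11500, 15090 and 7686. Hist1h4h differed least between days 0 and 139, with 179, 250 and 161, and under spike-in scaling it and Hist1h4i were higher in Sample 3 than in Sample 1. A further probe for Hist1h4k had 7719, 7815 and 4439, close to the same ratio, and a dim probe for Hist2h4 had 58.7, 48.8 and 32.5. The 3 probes for Hist1h4i disagreed. The brightest had 2329, 3398 and 1921, another had 1041, 1384 and 752, and the last had 1038, 1298 and 1163, so the direction between days 0 and 139 differed between probes.

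On day 2 the histone genes were close to their level on day 0. In Sample 2 over Sample 1, 32 genes were higher and 15 were lower, with a median log2 ratio of 0.08 against 0.02 for all genes. A ratio of at least 1.5 was reached by 1 histone gene (2.08%), against 9.94% of all genes, and a ratio of at most 0.66 by 0, against 9.87%. By both criteria 0 were higher and 0 lower, against 2.2% and 2.88% of all genes. The gene past the ratio was the dim Hist1h2ae, with 13.6 and 26.1, whose signal in Sample 1 did not clear the background and which was at least 1.92-fold higher in Sample 2 on the quantile normalized scale. Its ratio was 1.71 under spike-in scaling and 1.20 under normexp background correction, so the size is uncertain. The classes ran from a median of 0.03 for H2B to 0.21 for H4, and H4 was the only class in which every gene was higher, with log2 ratios from 0.12 to 0.54. The sign of the small H2A and H2B medians depended on the setting. The H2A median was -0.14 without the near-identical probes, and the H2B median was -0.02 under spike-in scaling and -0.01 over the genes detected on all arrays. The difference exceeded 2 scanner errors for 10 higher genes and 1 lower gene, and the share of all genes beyond that limit is not given here. Scaling to the 75th percentile gave a histone median of 0.16 against 0.03 for all genes.

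The largest differences lay between days 2 and 139. In Sample 3 over Sample 2, 39 histone genes were lower and 9 higher, with a median log2 ratio of -0.53 against -0.03 for all genes. A ratio of at most 0.66 was reached by 22 genes (45.8%), against 13.5% of all genes, and a ratio of at least 1.5 by 1 gene, Hist1h2ac (2.08%), against 12.8%. The 22 genes held all 9 H4 genes, 4 of 8 H3 genes, 3 of 5 H1 genes, 3 of 12 H2B genes and 3 of 14 H2A genes. They include Hist1h2bg, whose signal in Sample 3 did not clear the background, so that it was at least 1.18-fold lower and the ratio limit was not shown to be passed. By both criteria 4 genes were lower, against 1.96% of all genes, namely Hist1h3g, Hist1h4k, Hist1h2ab and Hist2h4, with ratios of 0.411, 0.523, 0.549 and 0.549. By both criteria 0 were higher, against 2.8%. Scaled to the spike-in controls, 4 histone genes were at a ratio of at most 0.66 and 0 passed both criteria. With the scaled median absolute deviation 16 passed both. The shares of all genes under these settings are not given here.

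Of the 10 genes that were higher in Sample 3 than in Sample 1, 4 belong to a list of genes with polyadenylated forms. Hist1h1c, Hist1h2ac, Hist1h2bc and Hist2h2be, which are known to give polyadenylated mRNAs as well, had a median log2 ratio of 0.43 for Sample 3 over Sample 1, and all 4 were higher. Hist2h2be had signals of 126, 113 and 131, a difference smaller than its scanner error. The median of the 4 genes was 0.39 after scaling to the 75th percentile and 0.83 after scaling to the spike-in controls. This list was written from general knowledge with earlier results of these arrays known, so its direction is a description. In the RefSeq annotation of GRCm38.p6, to which all 49 genes were matched (47 by accession and 2 by synonym), 5 of the detected genes are annotated over more than 1000 bases. They are Hist1h2bc, Hist1h2be, Hist1h2bp, Hist1h2bq and Hist2h2be, with a median of -0.25, and 2 of them were higher. The 43 genes with shorter annotation had a median of -0.46, and 8 of them were higher.

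The histone genes also differed by the base composition of their probes. With quantile normalization, and among the 44 genes well above background on days 0 and 139, the 6 with a probe GC content below 40% had a median log2 ratio of 0.40 for Sample 3 over Sample 1, and 2 of them were lower. The 15 genes from 40% to below 50% had a median of -0.36, with 12 lower, and the 23 genes of at least 50% had a median of -0.54, with 22 lower. Under spike-in scaling the medians of these 3 bins were 0.85, 0.06 and 0.03, and 1, 7 and 11 of the genes were lower. Over all detected genes of the array, the medians of the same 3 bins were -0.00, -0.02 and 0.04, so the order by GC content was not seen among the other genes. All 8 histone genes with near-identical probes fall in the bin of at least 50%, so its genes are not all separate measurements. The bins of histone genes also differ in median signal in Sample 1, at 928, 223 and 11500. All 5 genes with the stem-loop in the probe were lower on day 139 than on day 0 with quantile normalization, at log2 ratios from -0.73 to -0.05 and a median of -0.62, and 4 of the 5 were lower with a median of -0.19 under spike-in scaling. The 3 genes with a polyadenylation hexamer went both ways, at 0.85 for Hist3h2ba, -0.36 for Hist1h2be and -0.40 for Hist1h2ag, and all 3 were higher under spike-in scaling. All 8 genes whose probe ends in a stop codon were lower, with a median of -0.50, but under spike-in scaling 2 of the 8 were lower and 6 higher, and 5 of the 8 are read by near-identical probes. With 3 to 8 genes in such a group and no replicate arrays, these are counts and not tests.

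**Figure D3:**
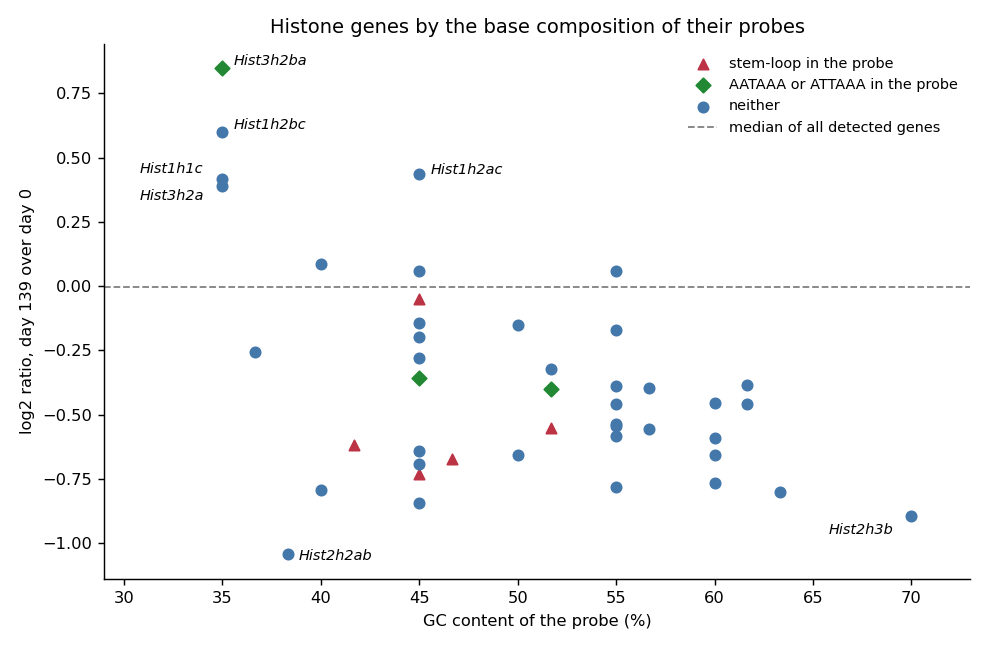
Log2 ratio of Sample 3 (day 139) over Sample 1 (day 0) against the GC content of the probe (%), for the histone genes well above background in both samples. Triangles mark probes with a stem-loop and diamonds probes with a polyadenylation hexamer. Hist3h2ba, Hist1h2bc, Hist1h1c and Hist3h2a, all above the dashed median of all genes, share a GC content of 35%, and the other genes lie mostly below it.

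Position in the clusters was examined next. The 35 detected genes of the Hist1 cluster on chromosome 13 had a median log2 ratio of -0.46 for Sample 3 over Sample 1, with 30 lower, and the 9 genes of the Hist2 cluster on chromosome 3 had a median of -0.45, with 7 lower, whereas under spike-in scaling the medians were 0.06 and 0.14. In the small Hist3 cluster on chromosome 11, Hist3h2a and Hist3h2ba were higher, at 0.39 and 0.85, and Hist3h2bb-ps cleared the background in Sample 2 only, so that no direction is given for it. Many H2A and H2B genes sit head to head and share the stretch between their start sites. There were 6 such pairs with starts less than 1000 bases apart. With quantile normalization, 2 of the 4 in which both genes were measured on days 0 and 139 had the same direction in both members. Hist1h2ac and Hist1h2bc, with 240 bases between their starts, were both higher, at 0.44 and 0.60. Hist1h2an and Hist1h2bp, with 235 bases between their starts, were both lower, at -0.54 and -0.25. Hist2h2ac was at -0.39 while its partner Hist2h2be, 192 bases away, was at 0.06. Under spike-in scaling Hist1h2an and Hist2h2ac were slightly higher in Sample 3, so the directions within these pairs depend on the scaling.

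Promoters were read from RefSeq, as 250 bases before and 50 after each start, for 43 of the 49 genes. The table held 27025 genes. The octamer ATTTGCAT was present on either strand in 7 of 14 H2A and 5 of 9 H2B promoters, in 0 promoters of H1, H3 and H4, and in 1.75% of all promoters. The letters CCAAT were present in 37 of the 43 histone promoters and in 37.9% of all promoters, and TATAAA in 26 of the 43 and in 14.2%. Only 2 of 8 H4 promoters held CCAAT. The 120 bases before the start are shown for a pair of H2B genes with opposite ratios, Hist3h2ba (GRCm38.p6, chr11:58948791-58948910, plus strand) and Hist2h2bb (GRCm38.p6, chr3:96269580-96269699, plus strand), with matches to these motifs on either strand in capitals.
Hist3h2ba: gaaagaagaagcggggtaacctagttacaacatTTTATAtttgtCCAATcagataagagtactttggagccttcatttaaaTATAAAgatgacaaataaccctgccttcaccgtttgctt
Hist2h2bb: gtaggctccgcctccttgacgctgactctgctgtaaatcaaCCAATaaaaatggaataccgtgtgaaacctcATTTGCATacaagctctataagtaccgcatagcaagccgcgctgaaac
The octamer occurs in the promoter shown for Hist2h2bb, the gene with 3092, 4419 and 1942, and these letters were not found in the window of Hist3h2ba. Over the detected genes with a promoter, the 12 with an octamer had a median log2 ratio of -0.35 for Sample 3 over Sample 1 and the 30 without it -0.54. All 12 were H2A or H2B genes, while the 30 included every H1, H3 and H4 gene of the comparison. The difference is therefore not separated from the histone class. A match of letters is a description and no binding site.

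Genes that act with the histones in S phase were compared by lists written from general knowledge. Of 28 genes of DNA replication, 26 were lower in Sample 3 than in Sample 1. Their median log2 ratio was -0.56, and 10 of them were at a ratio of at most 0.66. Cdc6, which loads the replicative helicase, had the smallest ratio among those well above background, with signals of 637, 597 and 322. All 14 genes of mitosis were lower, with a median of -0.64, though Aurkb did not clear the background in Sample 1 or Sample 3. They were led by Mki67, a marker of dividing cells, with 30690, 27728 and 15556. The histone median of -0.43 lay on the same side as these lists, and in Sample 2 over Sample 1 the replication and mitosis medians were 0.23 and 0.24. After scaling to the spike-in controls the replication median was -0.13 and the mitosis median -0.19, against 0.43 for all genes. On that scale 18 of the 28 replication genes and 10 of the 14 mitosis genes were lower.

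Slbp, the protein that binds the stem-loop, had signals of 856, 561 and 536, so it was lower in both later samples, with ratios of 0.655 and 0.627 over Sample 1. Npat, which activates histone gene transcription, did not clear the background in any of the 3 samples. Of the 14 detected genes for histone mRNA processing and transcription, 10 were lower in Sample 3 than in Sample 1, at a median log2 ratio of -0.20, which turned to 0.21 under spike-in scaling. Only Slbp among them was at a ratio of at most 0.66. Most replication-independent histone variants are made throughout the cell cycle and carry poly(A) tails. With quantile normalization the 11 listed variants had a median of -0.02 for Sample 3 over Sample 1, with 5 higher and 6 lower. Under spike-in scaling all 11 were higher, at a median of 0.44, against 0.43 for all genes. H3f3a had 18474, 16040 and 19094, and H3f3b had 17524, 14455 and 16748, so the H3.3 genes stayed within a ratio of 0.825 to 1.19 between any 2 samples. H2afj, a bright variant of H2A, had 187880, 184230 and 130108 and a ratio of Sample 3 over Sample 1 of 0.692, in the range of the bright H2A genes. The dim linker variant H1f0 had 15.8, 29.4 and 29.4 and a ratio of 1.85, the largest among the variants well above background in all samples.

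**Figure D4:**
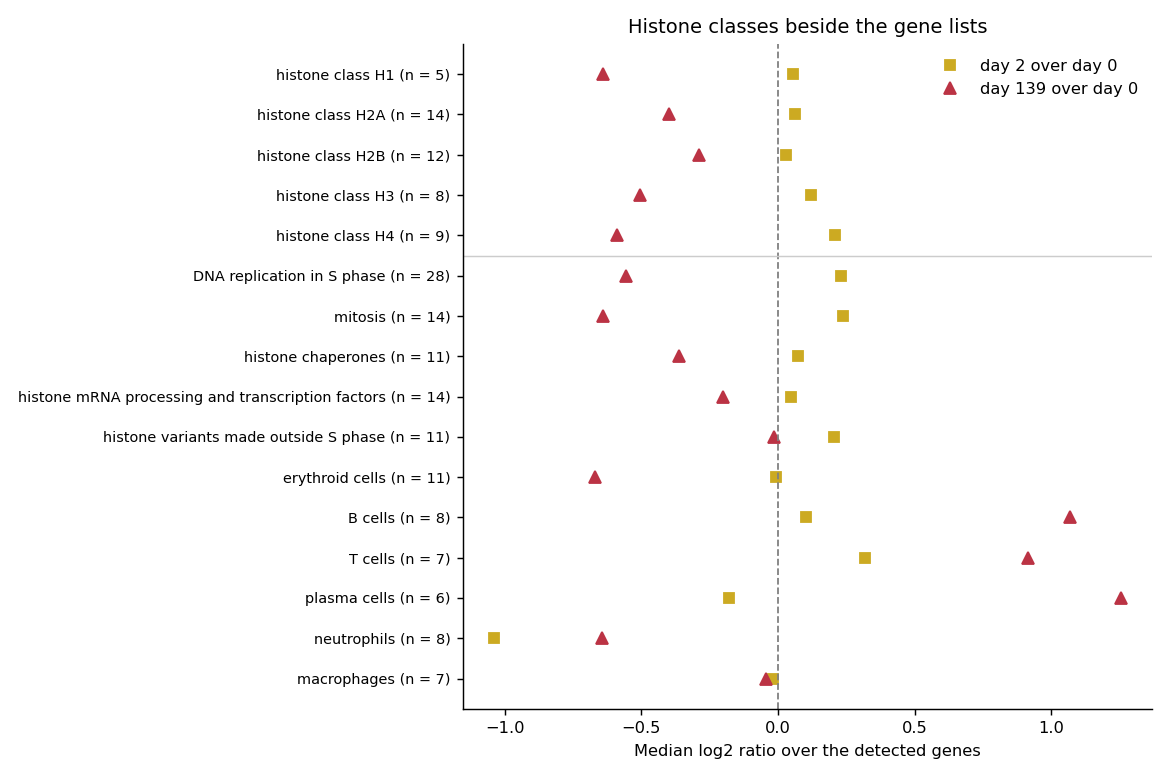
Median log2 ratio of Sample 2 over Sample 1 (squares) and of Sample 3 over Sample 1 (triangles) for the 5 histone classes, above the line, and for 11 gene lists below it, with the number of detected genes in brackets. The histone classes lie between -0.64 and -0.29 on day 139. H1, H3 and H4, at -0.64, -0.50 and -0.59, lie near DNA replication at -0.56, mitosis at -0.64 and erythroid markers at -0.67. H2A at -0.40 and H2B at -0.29 lie nearer the histone chaperones at -0.36. The replication-independent variants lie at -0.02 and the B cell markers at 1.07. These values are with quantile normalization, and the spike-in medians of H2A, H2B and the variants are 0.19, 0.10 and 0.44.

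Markers of blood cell types moved with the histone genes or against them. All 11 erythroid markers on the array were well above background in every sample and lower in Sample 3 than in Sample 1, with ratios from 0.447 for Ank1 to 0.855 for Alas2. Their summed signal was 162945, 180063 and 119705 in Samples 1, 2 and 3. After scaling to the spike-in controls, 9 of the 11 were still lower, with a median log2 ratio of -0.22. The 8 B cell markers were all higher in Sample 3, with summed signals of 50562, 50579 and 94835, and so were all 7 T cell markers, with 12289, 16544 and 22762. Neutrophil markers had summed signals of 213692, 74030 and 87050, with 4 of 8 lower in Sample 3 than in Sample 1, and macrophage markers 116951, 97101 and 99968, with 4 of 7 lower. Plasma cell markers had 54482, 34902 and 92991. Islet endocrine markers had 63567, 107092 and 33121, sums made up mostly of the insulin genes Ins1 and Ins2, and all 8 were higher on day 2 than on day 0, at a median log2 ratio of 2.22. Exocrine pancreas markers had 91.5, 134 and 719, and 4 of the 6 did not clear the background in Samples 1 and 2. Such sums add probes that share no common scale and weigh the bright ones most. The part of these cell types in the lower histone signals was not tested. In whole spleen, fewer dividing cells and less histone mRNA per dividing cell cannot be told apart.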

How the data were processed

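Spleen RNA was hybridized to 3 one-color Agilent SurePrint G3 Mouse 8x60K arrays, 1 per condition. The authors deposited the scanner output with the intensity of each spot, already background-subtracted, together with its flags for detection, saturation and outliers. The deposited file headers name Feature Extraction 10.7.1.1, whereas the labels name 9.5.1.1. RNA and labeling kits differ between the labels and the paper, and the primers used for labeling are not given in the sources used here. Whether mRNAs without a poly(A) tail were labeled as well as polyadenylated ones is therefore not known. The histone signals need not measure the stem-loop mRNAs alone. The authors also deposited normalized intensity values, used as an alternative.

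Control and outlier spots were left out, spots were averaged, and 55679 probes were quantile normalized, floored at 1 and log2 transformed. Probes well above background on at least 1 array (32108) counted as detected, and each gene was read by its brightest detected probe, which left 22851 genes. A ratio was the quotient of 2 normalized signals. For a bound, a dim signal entered as the higher of itself and the lowest signal well above background on its array. The Z-score formula is not stated in the paper. No p-value was computed, and 3 arrays limit the precision. The number of mice per array is unknown.

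The genes named were the 3 brightest of each class, the 3 largest and smallest ratios, those past both criteria, testis genes, genes with polyadenylated forms and the leading genes of each list, and other members were named after their values were seen. The members and lists were chosen with earlier results of these data known. The result of 1 further marker list is not reported here. The 14 alternatives began with normexp correction (offset of 50), scaling to the 75th percentile or to spike-in controls, and the deposited values. Others were a floor at each array's detection limit, detection on every array or no filter, and outlier spots kept. Also used were every probe or the median over probes, and a Z-score window of 250 probes. The last were the scaled median absolute deviation, a ratio limit of 2 or 0.5, and near-identical probes left out. Python 3.11.15 with numpy 2.4.6, pandas 2.3.3 and matplotlib 3.10.9 and R 4.3.3 with limma 3.58.1 were used.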

Additional observations from a re-analysis of the deposited data

How the results depend on the processing

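No paired analysis was possible because each condition had 1 array. The deposited values gave the counts and medians of the histone genes and classes, to the digits printed, and were not applied to the other gene lists. Scaled to the spike-in controls, the median log2 ratio of the histone genes turned to 0.071 for day 139 over day 0 and 0.056 over day 2, and those of H2A (0.19 and 0.087) and H2B (0.10 and 0.20) turned as well, while H1 (-0.21 and -0.31), H3 (-0.057 and -0.20) and H4 (-0.15 and -0.33) stayed below 0. Less the median of all genes, the histone median lay between -0.47 and -0.35 over day 0 and between -0.55 and -0.42 over day 2. These ranges cover all 14 alternatives, which are not all separate checks. The Z-score window, the median absolute deviation and the ratio limit change no ratio. Spike-in and 75th percentile scaling differ by a constant per array, so the difference from all genes was the same in both. Under spike-in scaling the genes at a ratio of at least 1.5 numbered 6 and 7, those at a ratio of at most 0.66 numbered 1 and 4, those higher by both criteria over day 0 numbered 1 and those lower by both criteria over day 2 numbered 0. For day 139 over day 0, the genes at a ratio of at most 0.66 numbered 9 under normexp and 1 at a limit of 0.5, and those at a ratio of at least 1.5 numbered 1 with the 75th percentile and 0 at a limit of 2. For day 139 over day 2 the limits of 2 and 0.5 gave 0 and 6 genes, with 1 lower by both criteria, and no detection filter gave 2 at a ratio of at least 1.5. For day 2 over day 0 the genes at a ratio of at least 1.5 numbered 0 under normexp, with detection on all arrays and at a limit of 2, and 2 with the 75th percentile, and no detection filter gave 1 at a ratio of at most 0.66. With no detection filter the H1 median was -0.39 over day 0 and -0.37 over day 2, since Hist1h1d then counts. Without near-identical probes the H2A median was -0.050 for day 139 and -0.14 for day 2 over day 0. By both criteria, a Z-score window of 250 probes gave 1 lower gene over day 0, the median absolute deviation gave 1 higher and 10 lower over day 0 and 16 lower over day 2, and the median over probes gave 2 lower over day 2. The cause of these differences was not tested otherwise. The counts in this paragraph are of histone genes only, without the shares of all genes under the same settings. Ratios of probes with signals below 100 rest on few units above background.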

Other observations

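Histone chaperones, which carry new histones to the replication fork or exchange them elsewhere, did not follow a single order. In Sample 3 over Sample 1, 9 of the 11 detected genes were lower, with a median log2 ratio of -0.36, which was 0.09 after scaling to the spike-in controls. Chaf1b, a subunit of the assembly factor that works behind the fork, had signals of 4302, 5236 and 2511 in Samples 1, 2 and 3. Chaf1a, another subunit of the same factor, had 688, 1907 and 876, so it was 2.77-fold higher in Sample 2 than in Sample 1. Asf1b had 4248, 3286 and 2422 and was lowest in Sample 3. Asf1a was dimmer, at 111, 51.5 and 84.8, and was lowest in Sample 2. Nap1l1, a chaperone of H2A and H2B, had 14122, 16192 and 17807 and was highest in Sample 3.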
